A study of Mus musculus with 14 samples.

Results

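Methylated cytosine (5mC) and occupancy were compared between extraembryonic endoderm (XEN) cells and mouse embryonic stem cells (ESCs). The libraries were those with file names that say H3K4me1, 1 methyl group on lysine 4 of histone H3. The labels of these XEN samples say H3K27ac, another mark, as described below. The comparison used 3 of the 14 samples of the series, 1 library of ESCs and 2 replicates of XEN cells, chosen by the names of their files. Its members were the 200-bp bins of the genome with at least 30 CpG counts in the ESC library and at least 30 in the summed XEN replicates. Of 7282466 bins with a count in any of 8 libraries, 225914 met this rule, and 35 mitochondrial bins that also met it were left out. All cells came from R1, a mouse ESC line kept in serum with LIF and 2i, the inhibitors of MEK and GSK3. The ESC group was grown for 2 days without 2i. The XEN group was grown for 9 days in another medium, which held retinoic acid at 0.1 µM and Activin A at 10 ng/mL. A group called RA here, used only beside the main comparison, was grown for 4 days without LIF and with 1 µM retinoic acid. The XEN cells were thus a differentiating culture of the same line and not an established XEN line, and a share of cells in other states cannot be read from bulk libraries. Marker genes of either cell state were not checked, because bins were not assigned to genes.

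H3K4me1 marks enhancers, both poised and active ones, while H3K27ac, acetylation of lysine 27, is added at active enhancers and promoters. DNA methylation at enhancers is usually low where transcription factors are bound and high where they are not, and ESCs without 2i regain methylation that 2i had lowered. XEN cells are the cultured counterpart of the primitive endoderm, the layer beside the embryo that gives rise to the yolk sac. In ChIP-BS-seq the DNA of the marked nucleosomes is treated with bisulfite, which changes unmethylated cytosines and spares 5mC, so each count is a CpG read as methylated or not on a molecule that carried the mark. Occupancy here is the number of CpG counts of a bin, so it also rises with the number of CpGs in the bin and is compared between libraries within bins only.

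The labels and the file names of the XEN samples disagree. The 2 XEN replicates studied here have files named for H3K4me1, while their titles and their antibody entries say H3K27ac. The other 2 XEN libraries have files named for H3K27Ac and labels that say H3K4me1. The 4 libraries were therefore set beside the ESC and RA libraries, whose names and labels agree. In the bins that were deepest in the H3K27ac library of ESCs (at least 60 counts and under 10% 5mC), the XEN replicates named H3K4me1 held a mean of 0.79 and 0.72 CPM (the CpG counts of a bin scaled to the total of its library), against 0.57 in the H3K4me1 library of ESCs and 0.66 in that of RA cells. The XEN pair named H3K27Ac held 3.89 and 3.63, against 4.22 and 3.96 in the H3K27ac libraries of ESCs and RA cells. In this measure all 4 XEN libraries were close to the mark of their file name and not to that of their label. In bins of at least 30 counts the 5mC was 59.0% and 58.7% in the XEN replicates named H3K4me1 and 13.6% and 15.6% in the other XEN pair, while H3K4me1 libraries had 28.8% (ESC) and 47.9% (RA) and H3K27ac libraries 5.92% and 12.8%. Below, "XEN replicates" are the pair with file names H3K4me1 and labels H3K27ac, and "other XEN pair" the libraries labelled H3K4me1. Some results are also given with the other XEN pair in their place.

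**Figure D1:**
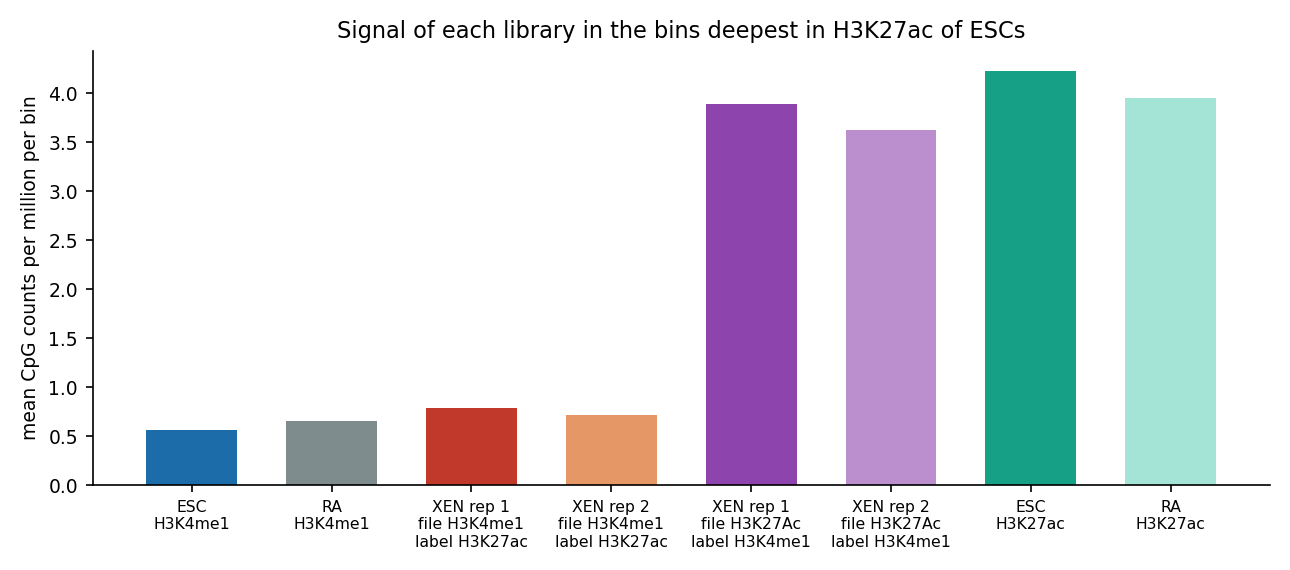
Mean CPM per bin (y axis) in each of 8 libraries (x axis), over bins with at least 60 counts and under 10% 5mC in the H3K27ac library of ESCs. The XEN replicates with files named H3K4me1 (0.79 and 0.72) stood beside the H3K4me1 libraries (0.57 and 0.66), and the other XEN pair (3.89 and 3.63) beside the H3K27ac libraries (4.22 and 3.96).

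The ESC library held 58803653 CpG counts, XEN replicate 1 held 22746494 and XEN replicate 2 held 31345707. A bin of the comparison had a median of 54 counts in ESCs, 28 in replicate 1 and 36 in replicate 2, so the value of a single bin in a single replicate has a wide counting error. The lowest count listed in a XEN file is 4, while ESC and RA files start at 1, and the submitters' tool list adds Bowtie2 for the XEN samples. The ESC and RA data come as 1 file per mark, and whether such a file holds 1 library or pooled repeats is not given in the sources used here. It is called a library below. With 1 ESC file, the difference between cell states cannot be told apart from differences in days of culture, medium, preparation and processing. An exact permutation test of 1 library against 2 cannot give a p below 0.333, so the tests below compare libraries. The labels do not say whether the XEN replicates were separate cultures, and the spread between them may be technical. Fisher's tests and the intervals treat each CpG count as independent. CpGs of 1 read are not, since the authors had removed reads whose CpGs differed in state, so these understate even the counting error.

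5mC was higher in the XEN replicates than in the H3K4me1 library of ESCs over most of the bins that both cell states shared. The median bin had 20.7% 5mC in ESCs (quartiles 6.25% and 40.0%) and 62.9% in the summed XEN replicates (36.4% and 78.1%). The median difference was 31.5 percentage points (quartiles 14.9 and 47.7). XEN was above ESC in 92.7% of bins and below it in 6.40%. By Fisher's exact test per bin (two-sided, Benjamini-Hochberg adjusted over all 225914 bins, adjusted p under 0.05 and a difference of more than 20 points), 150046 bins gained 5mC in XEN cells, 66.4% of those tested, and 2593 lost it, 1.15%. A model over the replicates (edgeR's quasi-likelihood test on methylated and unmethylated counts with a term per library) kept 136460 of the gains and 2093 of the losses.

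Each XEN replicate showed this on its own. Over bins with 30 counts of its own, replicate 1 was 30.6 points above ESCs in the median of 104387 bins, and replicate 2 was 30.2 points above in the median of 141610. In 95568 bins both replicates and ESCs had at least 30 counts. Both replicates lay more than 20 points above ESCs in 60.5% of these bins and more than 20 points below in 1.54%. They lay on opposite sides of ESCs by that margin in 2 bins. The difference between replicate 1 and replicate 2 had a median of 0.07 points with quartiles of -5.86 and 6.14, and 72.7% of bins differed by 10 points or less. The same test and margin called 9 bins between the replicates (7 higher in replicate 1 and 2 in replicate 2), against 63614 gains and 1777 losses between ESCs and XEN cells in these bins. The test between the replicates used fewer counts than that of ESCs against the summed replicates. The replicates were more than 20 points apart in 4126 bins, 4.32%, which is above the share with both that far below ESCs. For gains, the difference from ESCs was therefore larger than the spread between the XEN replicates, while the spread between ESC libraries could not be measured.

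**Figure D2:**
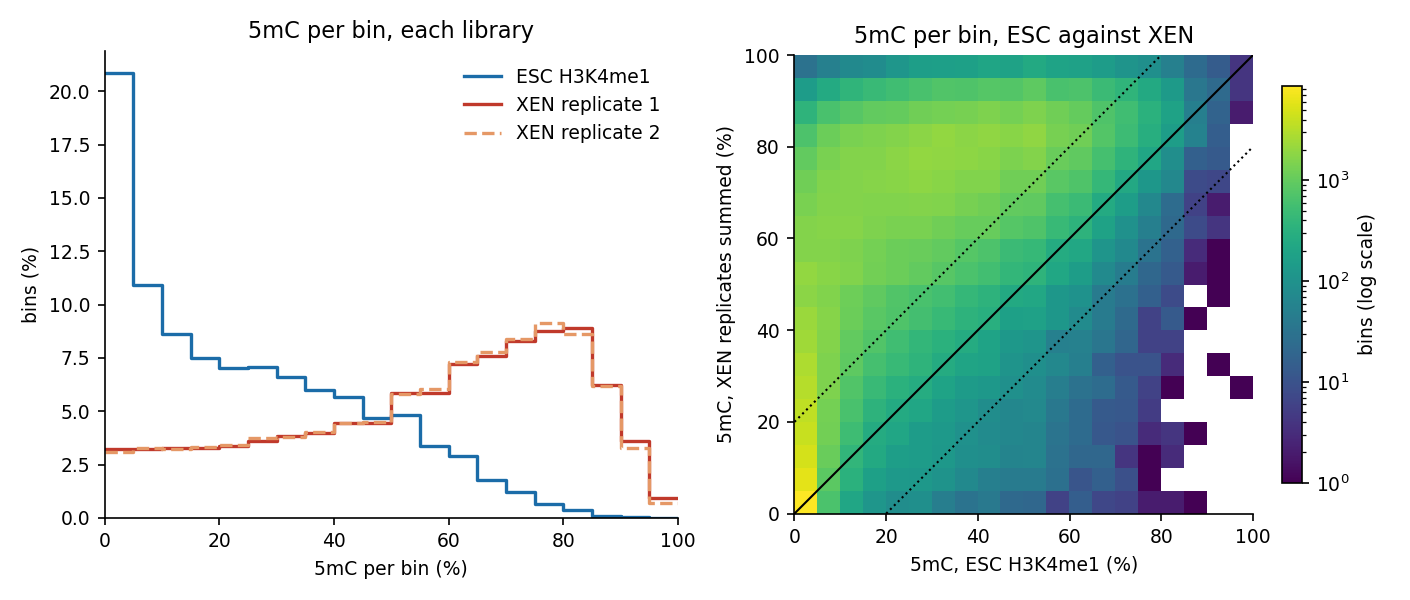
Left, share of bins (y axis, %) by 5mC (x axis, %, steps of 5 points) in ESCs and in each XEN replicate, over the 95568 bins with 30 counts in each. Right, the 225914 bins by 5mC in ESCs (x axis) and in the summed XEN replicates (y axis), coloured by the number of bins on a log scale, with equality as the solid line and 20 points either way as dotted lines. The XEN replicates lie on each other, with most bins above 50%, while ESC bins pile up under 10%, and the fullest square on the right holds 8661 bins under 5% in both cell states.

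The size of the change depended on the level in ESCs. Bins under 10% in ESCs (74027 bins) had a median of 30% in XEN cells, with 33.3% in each replicate where both were covered. Bins at 10 to 20% in ESCs rose furthest, by a median of 46.0 points to 60.7%, and 83.5% of them were called as gains. From there the gain narrowed as the ESC level rose, to 30.4 points for bins at 40 to 50% and 8.44 points for bins at 70 to 80%. The 111 bins at 90% or more differed by a median of -5.02 points. Bins near either end can move in 1 direction only, and an extreme value in 1 library tends to be less extreme in another, so these steps describe the bins and are no test.

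The study's limits of 20% and 80% 5mC for unmethylated and low-methylated regions were used, with bins above 80% called highly methylated here. By these, 48.7% of the bins were unmethylated in ESCs, 50.9% low-methylated and 0.44% highly methylated. In XEN cells these shares were 14.3%, 64.7% and 21.0%. Of the 109973 bins unmethylated in ESCs, 26.8% (exact 95% interval 26.6% to 27.1%) stayed so, 65.3% became low-methylated and 7.86% highly methylated. Within bins covered in each replicate, 23.4% stayed unmethylated in replicate 1 and 23.2% in replicate 2. The bins that stayed unmethylated started lowest, with a median of 1.72% in ESCs and 8.45% in XEN cells, while those that became highly methylated went from 12.3% to 84.9%. Of the 114950 low-methylated bins, 33.2% became highly methylated and 2.36% became unmethylated. Only 991 bins were highly methylated in ESCs, and 683 of them remained so.

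The same states were read over whole H3K4me1 peaks of ESCs, pooling the covered bins of each. Of 19924 covered peaks that were unmethylated in ESCs, 18.5% (17.9% to 19%) stayed unmethylated in XEN cells, 80.2% were low-methylated and 1.34% highly methylated, and 64.8% were over 30%. Of 27345 low-methylated peaks, 1.22% became unmethylated and 16% highly methylated. The choice of XEN pair mattered here. With the other XEN pair, whose labels say H3K4me1, 58.1% of the unmethylated peaks stayed unmethylated, over 10005 peaks that this shallower pair covered.

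Methylated and unmethylated counts were also followed apart. Across all bins the unmethylated CpG counts (in CPM) of XEN cells differed from those of ESCs by a median of -0.52 on the log2 scale (with 0.01 CPM added to both libraries) and the methylated counts were higher by 1.79. In gain bins the unmethylated counts were at -1.01 and the methylated at 2.09. In loss bins the signs were turned, with 1.94 for unmethylated and -0.45 for methylated counts. Bins that stayed unmethylated had 0.16 for unmethylated and 1.64 for methylated counts. These bins were chosen for low 5mC and had a median of 1.72% in ESCs, so their methylated counts there were near the floor.

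Occupancy moved less evenly than 5mC. Scaled by the total CpG counts of each library, the median bin was 0.41 (replicate 1) and 0.32 (replicate 2) higher in XEN cells than in ESCs on the log2 scale with 0.01 CPM added. This direction held for the members, which were chosen by their counts. Over the 2247775 bins with at least 10 counts summed, the median edgeR log2 fold change was -0.31. Bins not listed in the XEN files were taken as 0 there. That wider fit called 0 bins higher and 0 lower at the limits that are given next for the members. The edgeR quasi-likelihood test on total counts of the 3 libraries (adjusted p under 0.05 and a log2 fold change above 1 either way) called 42295 bins higher in XEN cells, 18.7% of those tested, and 6480 lower, 2.87%. The scaling set this balance. The median of all bins was at a log2 fold change of 0.36 with total counts and at -0.03 with TMM factors, under which 21812 bins were higher and 13635 lower, and the split of calls went from 86.7% to 61.5% higher. The 21812 bins called higher under TMM factors were all among the 42295, and 6474 of the 6480 lower bins were called lower again. With 1 ESC library, this fit takes its spread from the XEN replicates and assumes that ESCs vary as they do. When all 8 libraries shared 1 estimate of the spread, the default form of the edgeR fit called 0 bins, with 41978 at an unadjusted p under 0.05, while its newer form, tried after seeing the data, called 20634 higher and 1116 lower. Without replicate 1 it called 6 bins and without replicate 2 it called 8, all higher in XEN cells. The log2 ratio of the replicates to each other had an SD of 0.64 across bins, and that of XEN cells to ESCs an SD of 0.86. The number of occupancy calls thus depended on the form of the fit, and calls are given below as shares beside those of all bins.

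Bins with 30 counts on 1 side only were not members and are described here without a test. At least 30 counts in ESCs only were found in 352380 bins, which held 30.5% of the counts of the ESC library and 5.59% and 5.99% of the counts of the XEN replicates. At least 30 in XEN cells only were found in 304960 bins, with 35.6% and 33.8% of the counts of the XEN replicates and 5.6% of those of ESCs. Of the ESC-only bins 41.1% overlapped an H3K4me1 peak of RA cells, against 93.4% of the XEN-only bins. With at least 100 counts in ESCs, 2869 bins were listed in neither XEN file, and 99.9% of them lay in an ESC peak and 16.8% in an RA peak. With at least 100 counts in XEN cells and 3 or fewer in ESCs there were 7652 bins, of which 5.29% lay in an ESC peak and 98.1% in an H3K4me1 peak of RA cells. In these XEN bins 5mC was 64.4% in replicate 1 and 63.8% in replicate 2, and in the bins absent from the XEN files it was 26.2% in ESCs. At the edge of the coverage rule, bins with 30 to 34 counts in the lower of the 2 sides differed by a median of 28.4 points in 5mC and bins with 25 to 29 counts, which were left out, by 27.5.

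The peak lists, which were made from the ESC and RA libraries and not from XEN cells, sorted the occupancy of XEN cells. At the centre of 64964 H3K4me1 peaks found in ESCs and not in RA cells, ESCs had 327 CPM per 1000 peaks, XEN replicate 1 had 52.1 and replicate 2 had 57.5. At 68312 peaks of RA cells only, ESCs had 34.6, and the XEN replicates had 242 and 262, with 303 in RA cells themselves. At 80854 ESC peaks shared with RA cells the values were 417 in ESCs and 456 and 440 in the XEN replicates. The other XEN pair had 78.7 and 85.7 at peaks of ESCs only, 122 and 125 at peaks of RA cells only and 288 and 285 at shared peaks. Peaks of ESCs only were selected for high ESC counts and peaks of RA cells only for low ones, so the ESC side of these contrasts is set by the lists, while the XEN side is not. Counting only bins with 4 or more counts, as the XEN files list them, gave 325 for ESCs at peaks of ESCs only, 25.9 at peaks of RA cells only and 416 at shared peaks.

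5mC around these centres also differed between the kinds of peak. At peaks of ESCs only, 5mC in ESCs was 39.3% at the centre, 50% at 1000 bp upstream and 44.4% at 3000 bp upstream. The XEN replicates were at 62.7% and 63.2% at the centre, 58.7% and 61.3% at 1000 bp and 62.8% in each at 3000 bp. At shared peaks the centre was at 31.8% in ESCs, 57.8% and 57.7% in the XEN replicates and 47.5% in RA cells. At peaks of RA cells only, the XEN replicates had 58.3% and 57.2% at the centre against 69.4% and 68.6% at 1000 bp upstream and 64.2% in each at 3000 bp. ESCs there had 54.9% at the centre, 58.2% at 1000 bp and 46.8% at 3000 bp. The XEN replicates therefore had less 5mC at the centres of RA peaks than beside them. They differed there from ESCs by 2 to 4 points, against more than 20 points at the centres of peaks of ESCs. These values are pooled, and ESCs had few counts at peaks of RA cells only, so the libraries may weight different bins. Among members in peaks of RA cells only the median difference was 10 points, against 31.8 in peaks of both.

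**Figure D3:**
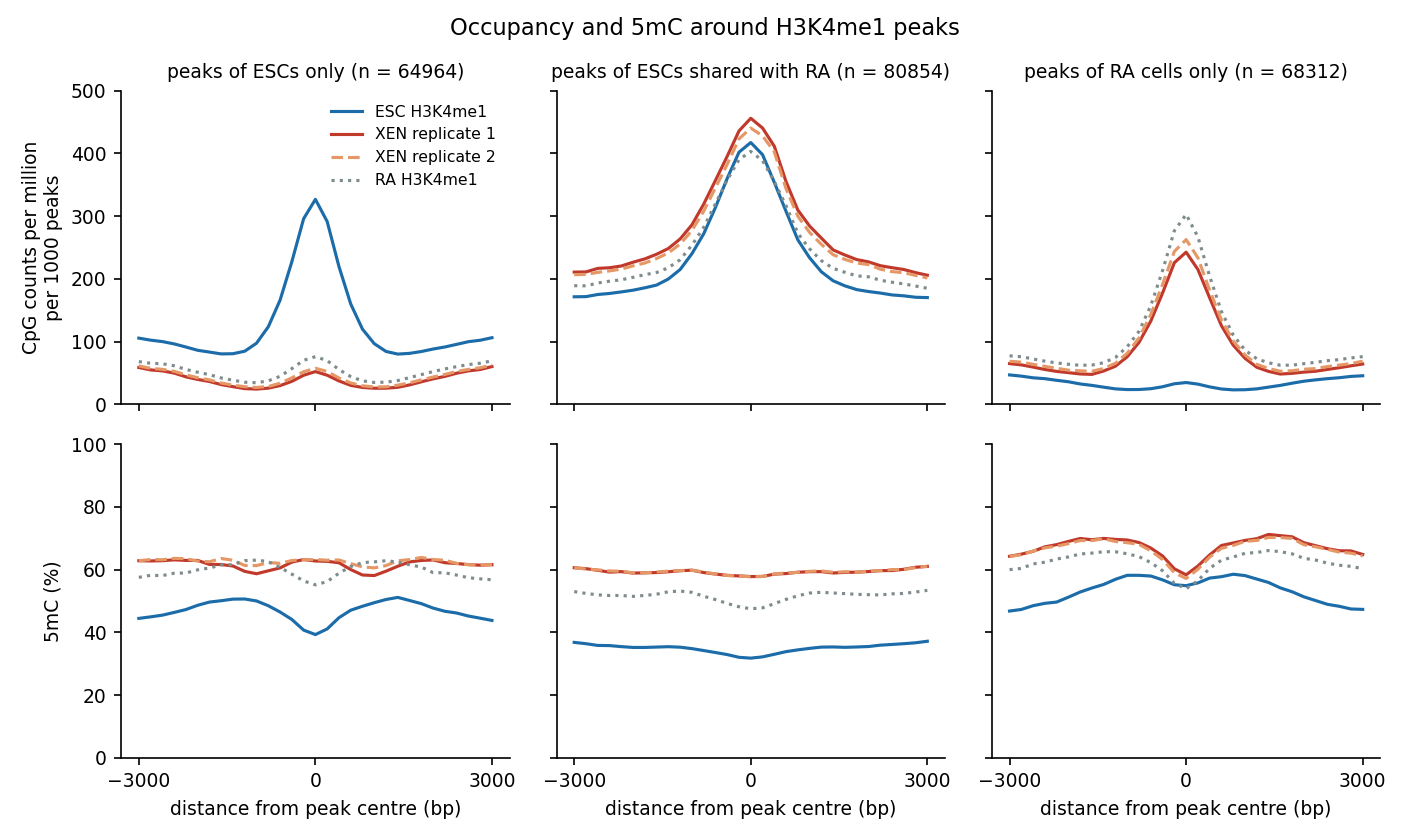
CPM per 1000 peaks (top) and 5mC in % (bottom) against the distance from the peak centre in bp, for H3K4me1 peaks of ESCs only, ESC peaks shared with RA cells and peaks of RA cells only. Lines are ESCs, XEN replicates 1 and 2 and RA cells. The XEN lines peak with RA cells at peaks of RA cells only (242 and 262 against 34.6 in ESCs) and are lower than ESCs at peaks of ESCs only (52.1 and 57.5 against 327). There their own values are 24.2 and 26.8 at 1000 bp upstream and 58.7 and 61.1 at 3000 bp upstream.

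Among the members, 211040 bins overlapped H3K4me1 peaks of both ESCs and RA cells, 12757 a peak of ESCs only, 1159 a peak of RA cells only and 958 neither. Gains were 67.0% of the bins in peaks of both, 63.2% in peaks of ESCs only, 28.6% in peaks of RA cells only and 25.6% in neither, beside 66.4% of all bins. Losses were 1.19%, 0.13%, 4.31% and 0.84% of the same classes, beside 1.15%, and 1.23%, 0.082%, 2.65% and 0.46% with bins wholly inside a peak. The bins in peaks of RA cells only started higher in ESCs (median 47.1%, against 20.6% in peaks of both) and had 61.5% in XEN cells, against 62.8%. This order depended on the overlap that placed a bin in a peak: for bins wholly inside a peak the RA-only class had medians of 7.55% in ESCs and 32.6% in XEN cells, against 20.9% and 63% in peaks of both. The level in peaks of ESCs only moved with coverage: it was 67.1% in the summed XEN replicates over all 12757 bins, and 33.3% in replicate 1 and 32.8% in replicate 2 over the 1609 bins with 30 counts in each. Occupancy was called higher in 38.4% of the bins in peaks of RA cells only and in 2.94% of those in peaks of ESCs only, and lower in 0.00% and 7.65%. Under TMM factors these shares were 26.4% and 0.78% higher and 0.00% and 14.4% lower, so the order of the classes was the same under both scalings.

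An H3K27ac peak of ESCs divided the ESC peak bins further. The 166505 bins that overlapped one had a median of 17.3% 5mC in ESCs and 62.9% in XEN cells, and 69.9% gained 5mC. The 57292 bins with no H3K27ac peak went from 32.3% to 63.4%, and 57.8% gained. The classes thus started apart in ESCs and ended close together in XEN cells. Bins with an acetylation peak were called higher in occupancy in 17.6% and lower in 3.06%, and bins without one in 21.6% and 2.40%. In the 54365 members with 30 counts in the H3K27ac library of ESCs, the median 5mC was 3.70% in that library, 5.13% in the H3K4me1 library of ESCs and 47.5% in the XEN replicates.

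The change was spread over the genome. The median difference per chromosome ran from 28.9 points on chromosome 13 to 33.2 on chromosome 17. The X chromosome had 1586 bins, with less 5mC than any autosome in ESCs (median 12.7%) and in XEN cells (53.2%), and its difference of 32.8 points was within the range of the autosomes. On the X chromosome 8.45% of bins were called higher in occupancy, beside 14.7% to 21.4% on the autosomes. Calls of lower occupancy were also rarer there, at 0.82%, beside 2.31% to 3.69% on the autosomes. Joining bins of 1 direction whose starts were at most 1000 bp apart gave 56059 runs of gains, 25504 of 1 bin and 18368 of 3 or more, and the longest had 148 bins at chr3:41370201-41411800. 5mC over that run was 18.4% in ESCs, 74.1% and 73.4% in the XEN replicates, 72.2% and 73.9% in the other XEN pair and 60.1% in RA cells. The 2593 losses fell into 2051 runs, of which 106 had 3 or more bins, and the longest had 8.

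Losses of 5mC were few, and these bins were called higher in occupancy more often than all bins. In ESCs the loss bins stood at 50% in the median, with quartiles of 39.6% and 62.2%. In the summed XEN replicates they stood at 16.1%, with quartiles of 8.16% and 27.6%, and at 17.8% in replicate 1 and 17.5% in replicate 2 where both were covered. Of the 2593 loss bins, 51.6% were called higher in occupancy and 0.23% lower, beside 18.7% and 2.87% of all bins. Their occupancy was higher by a median of 1.22 in replicate 1 and 1.17 in replicate 2, beside 0.41 and 0.32 over all bins. These values are on the log2 scale with 0.01 CPM added. With the replicates summed, all bins at 40 to 50% in ESCs had a median of 0.50, and those at 50 to 60% had 0.60. Under TMM factors 32.7% of loss bins were called higher, beside 9.66% of all bins. Gain bins were called higher in 17.2% and lower in 3.72%, and under TMM factors in 8.43% and 7.55%. Bins with lower occupancy in XEN cells started at a median of 16.1% in ESCs and differed by a median of 46.1 points, with 86.0% called as gains. Bins with higher occupancy started at 31.5% and differed by 26.6 points, with 60.9% called. Among all bins at 10 to 20% in ESCs, whatever their occupancy, the values were 46.0 points and 83.5%. Among all bins at 30 to 40% they were 37.2 points and 77.5%.

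The overlap of loss bins with peaks was set beside that of all members. An H3K4me1 peak of ESCs overlapped 97.8% of them, close to the 99.1% of all members. An H3K4me1 peak of RA cells overlapped 99.1% of them, beside 93.9% of all members. An H3K27ac peak of RA cells overlapped 93.9% of them, beside 78.4% of all members. An H3K27ac peak of ESCs overlapped 55.6% of them, beside 74.0% of all members. Their median distance to the nearest centre of an H3K27ac peak of RA cells was 797 bp, beside 1273 bp for all members and 1355 bp for gain bins. To the centre of an H3K4me1 peak of ESCs it was 926 bp, beside 1384 bp for all members, and to that of an H3K4me1 peak of RA cells 962 bp, beside 955 bp. In the 2422 loss bins with 30 counts in the H3K4me1 library of RA cells, 5mC was 50.8% in ESCs, 19% in RA cells and 16.7% in XEN cells. In the 1510 loss bins with 30 counts in the other XEN pair, that pair had 11.1% where the XEN replicates had 14.8%. Both comparisons with ESCs use the same ESC library, so a chance deviation of that library appears in each of them.

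**Figure D4:**
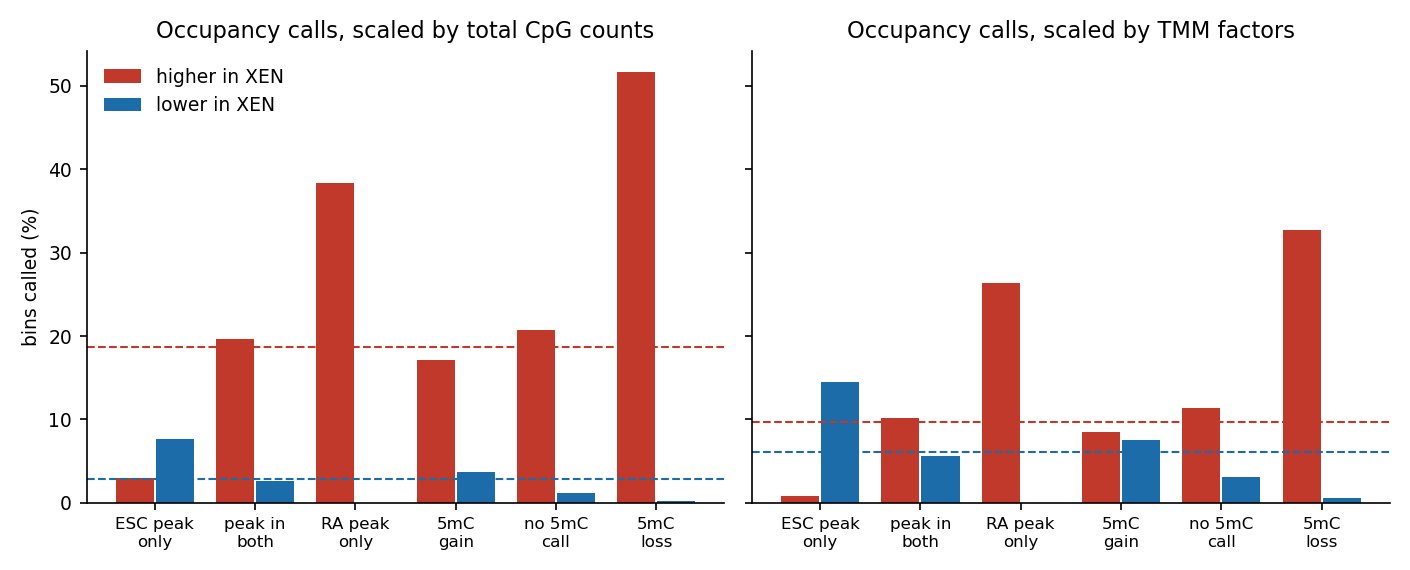
Share of bins (y axis, %) called higher (red) or lower (blue) in occupancy in XEN cells, by H3K4me1 peak class and by 5mC call (x axis), with libraries scaled by total CpG counts (left) or TMM factors (right). Dashed lines are the shares over all bins. Loss bins (51.6% and 32.7%) and bins in peaks of RA cells only (38.4% and 26.4%) are called higher most often under each scaling.

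The longest run of losses, with 8 bins, was at chr9:77383001-77385600. Its 5mC was 41.4% in ESCs (493 counts), 13.2% in XEN replicate 1 (531 counts) and 14.0% in replicate 2 (550 counts). In the other XEN pair it was 9.96% and 9.28%, and in RA cells 18.6%. Occupancy there was 8.38 CPM in ESCs and 23.3 and 17.5 in the XEN replicates. A run of 6 bins at chr19:30021201-30022800 went from 59.2% in ESCs to 15.3% and 14.2%, and a run of 5 bins at chr2:13413001-13414000 from 59.9% to 8.09% and 4.62%. The latter held 4.88 CPM in ESCs, 5.98 and 6.22 in the XEN replicates and 34 and 24.5 in the other XEN pair. Over the 10 longest runs ESCs had between 31.2% and 63.8%. That the XEN replicates lay below ESCs there was fixed by the choice of bins. The other XEN pair and the RA library, which did not enter that choice, were also below this ESC library in every run. The runs were chosen for high 5mC in this ESC library as well, so other libraries tend to fall below it there. At chr5:66443601-66445800 occupancy was the lower in the XEN replicates, with 4.97 and 5.33 CPM against 7.57 in ESCs. The largest gap in 5mC between the XEN replicates in these runs was at chr12:31955401-31956600, with 8.41% and 22.1% against 46.3% in ESCs.

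**Figure D5:**
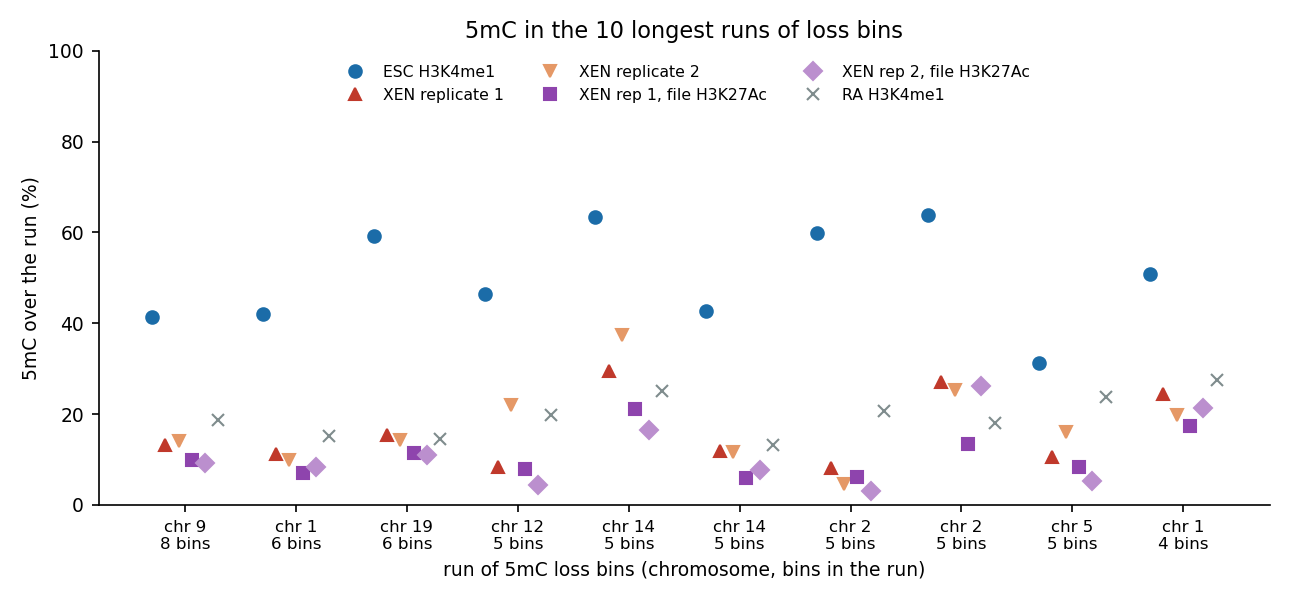
5mC in % (y axis) over each of the 10 longest runs of loss bins (x axis, chromosome and number of bins), in ESCs, the XEN replicates, the other XEN pair (files named H3K27Ac) and RA cells. ESCs are between 31.2% and 63.8%, and the XEN replicates lie below them by the choice of bins. The other XEN pair and RA cells, not used in the choice, lie below them as well. The bins were also chosen for high 5mC in this ESC library, so other libraries tend to fall below it.

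Single bins deep enough to be read by replicate (at least 100 counts in ESCs and 50 in each XEN replicate, more than 20 points in the same direction in each) numbered 5929 for gains and 36 for losses. The bin that gained most among these, leaving out chromosome 18, was chr12:88177801-88178000, with 1.6% in ESCs (exact 95% interval 0.19% to 5.66%, 125 counts), 95.6% in XEN replicate 1 (87.6% to 99.1%, 68 counts) and 94.4% in replicate 2 (86.4% to 98.5%, 72 counts). Its Fisher adjusted p was 7.29e-60. Its occupancy was 2.13 CPM in ESCs and 2.99 and 2.30 in the XEN replicates, a log2 fold change of 0.30 with an edgeR adjusted p of 0.595. The next were chr13:51218601-51218800, from 3.45% to 93.2% and 91.5%, and chr15:98362001-98362200, from 1.96% to 95.1% and 85.7%. The other 2 of the 5 largest were chr11:78817401-78817600, from 1.44% to 89.0% and 90.5%, and chr2:35301201-35301400, from 1.00% to 84.4% and 93.8%. All 5 lay in H3K4me1 and H3K27ac peaks of both ESCs and RA cells, and the H3K27ac library of ESCs had between 0.00% and 3.81% there. RA cells had 46.7% to 66.3% in these bins, which were chosen for the extremes of ESCs and XEN cells.

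The bin that lost most, within the same limits, was chr10:111017401-111017600, with 52.3% in ESCs (44.0% to 60.5%, 151 counts), 4.71% in XEN replicate 1 (1.30% to 11.6%, 85 counts) and 2.38% in replicate 2 (0.49% to 6.80%, 126 counts), at a Fisher adjusted p of 7.28e-27. RA cells had 5.39% there and both libraries of the other XEN pair 0.00%, over 69 and 96 counts, which allow up to 5.21% and 3.77% by the exact interval. At chr6:22295401-22295600 5mC went from 62.6% to 12.5% and 16%. At chr8:91667601-91667800 it went from 54.4% to 12.5% and 12.8%, and at chr1:184021401-184021600 from 48.1% to 2.80% and 11.7%. At chr4:108018201-108018400 it went from 50.5% to 9.68% and 9.76%. Occupancy was called higher at the bin on chromosome 8 (log2 fold change 1.18, edgeR adjusted p = 0.00803) and at the bin on chromosome 1 (1.16, edgeR adjusted p = 0.00994), while the other 3 had between 0.60 and 0.79 and did not pass.

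The bins with the largest rise in occupancy stood apart in all XEN libraries. At chr2:98507201-98507400 the ESC library had 225 counts (3.83 CPM), XEN replicate 1 had 31043 (1365 CPM) and replicate 2 had 51510 (1643 CPM), a log2 fold change of 8.62 with an edgeR adjusted p of 5.26e-10. The other XEN pair had 2007 and 1896 CPM there, and the RA library 5.28. At chr9:35113001-35113200 ESCs had 2.55 CPM and the XEN replicates 163 and 203 (log2 fold change 6.16), and at chr9:3022001-3022200 ESCs had 2.50 and the XEN replicates 32.3 and 38.5 (3.82). 5mC at these 3 bins differed between ESCs and the summed XEN replicates by -5.56, 3.15 and -0.13 points, with Fisher adjusted p of 0.114, 0.487 and 1. No bin of the H3K4me1 library of ESCs reached 1000 counts, and its highest had 475, while 10 and 15 bins of the XEN replicates did, with 0.39% and 0.48% of their counts. The 3 named bins were high in XEN files of either name and had between 141 and 249 counts in the H3K4me1 and H3K27ac libraries of ESCs and the H3K4me1 library of RA cells, and whether the preparation or the processing has a part in this was not tested. The 1 bin deep enough among those called lower was chr15:37166601-37166800, with 4.39 CPM in ESCs and 2.20 and 1.88 in the XEN replicates (log2 fold change -1.11, edgeR adjusted p = 0.00811), where 5mC went from 53.1% to 82% and 89.8%. When all 8 libraries shared 1 estimate of the spread, the default edgeR fit gave an adjusted p of 0.0678 for each of the 3 higher bins. For the lower bin it gave 0.148, and the newer form of the edgeR fit gave 0.01 and 0.0597. With the filter of 10 summed counts the edgeR adjusted p was 0.0766 for each of the 3 higher bins and 0.0888 for the lower. Without XEN replicate 1, the bins at chr9:35113001-35113200, chr9:3022001-3022200 and chr15:37166601-37166800 had edgeR adjusted p of 0.105, 0.427 and 0.486, and without replicate 2 the latter pair had 0.215 and 0.350.

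RA cells were set beside both in the same bins. In 168598 members with 30 counts in the H3K4me1 library of RA cells, the median was 19% in ESCs, 43.4% in RA cells and 59.0% in XEN cells. In gain bins, where the call fixed that XEN cells lie above ESCs, it was 18.5%, 51.1% and 67.9%, and in bins with neither call 18.8%, 21.2% and 26.0%. In loss bins, which were chosen for low 5mC in XEN cells, the values given above were 16.7% in XEN cells and 19% in RA cells. In 58977 members with 30 counts in the other XEN pair, ESCs had 21.0%, the XEN replicates 58.8% and the other XEN pair 54.1%. In 14669 bins with at least 20 counts in all 8 libraries, the median was 7.58% in the H3K4me1 and 5.41% in the H3K27ac library of ESCs, 26.8% and 20.4% in those of RA cells, 38.5% and 38.6% in the XEN replicates and 30.8% and 31.6% in the other XEN pair. All 4 XEN libraries were above all 4 others in these bins, under either reading of the XEN labels.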

How the data were processed

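ChIP-BS-seq libraries of ESCs (1 per mark), RA cells (1 per mark) and XEN cells (2 per mark) were used. Input, H3K36me and single-cell samples are not analysed here. Per the labels and the study's methods, the authors aligned reads to mm9 (the submitters' notes name Bismark, Bowtie and, for XEN samples, Bowtie2) and kept reads whose CpGs shared 1 state. The files they deposited give 2 raw counts of CpGs for each 200-bp bin. The methylated count comes first in ESC and RA files and last in XEN files, as read from mitochondrial bins, where methylated counts are rare. Peaks were called with HOMER by the authors, and the deposited peak score was not used. Groups follow the labels, and libraries were chosen by file name.

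5mC was methylated over all CpG counts. Fisher's exact test (two-sided) compared ESC counts with summed XEN counts per bin, and edgeR 4.0.16 (R 4.3.3) compared occupancy, scaled by total counts, both adjusted over 225914 bins and tested on simulated data. An overlap of 1 bp placed a bin in a peak. Shares have exact Clopper-Pearson 95% intervals. The bins and lists were chosen with earlier results of these data known. Bins named singly were the 5 with the largest 5mC difference each way and the 3 with the largest occupancy change each way among called bins with at least 100 counts in ESCs and 50 in each XEN replicate, and for 5mC more than 20 points in each replicate, with 1 per 10 kb and none on chromosome 18. Runs were chosen by length, with ties in the order of chromosome names. No annotation or genome of mm9 was used, so bins were not assigned to genes, marker genes were not checked and no sequence is shown. Alternatives were coverage minimums of 20 and 60, 30 points, other scalings, filters and models, each replicate left out, the other XEN pair and the H3K27ac library of ESCs. Python 3.11.15, numpy 2.4.6, scipy 1.17.1, numba 0.67.0 and DESeq2 1.42.0 (size factors) were also used.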

Additional observations from a re-analysis of the deposited data

How the results depend on the processing

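Depth limits single bins in single replicates, and the lone ESC library limits each comparison. No paired analysis was possible because the ESC group has 1 library, which shares no pair of replicate numbers with the XEN libraries. Of 150046 gains and 2593 losses, a minimum of 20 counts gave 225843 and 4511 (of 377703 bins), a minimum of 60 gave 43691 and 482 (of 60320), and more than 30 points left 1231 losses. The other XEN pair gave 35121 gains and 1972 losses of 69286 bins (2.85% losses, beside 1.15%), and the H3K27ac library of ESCs as the base gave 39585 gains and 147 losses of 69238. Leaving out 1 XEN replicate gave between 67155 and 90886 gains and between 1780 and 2173 losses, over fewer covered bins. The median difference of 31.5 points was 29.6 at 20 counts, 35.0 at 60 counts, between 30.2 and 30.6 with 1 replicate left out, 22.6 with the other XEN pair and 27.7 with the H3K27ac library of ESCs. Overall 5mC of 38.6% in ESCs, 61.5% in XEN replicate 1 and 61.5% in replicate 2 was 27.3%, 58.9% and 58.8% over bins with 4 counts in every library and 22.7%, 56.4% and 56.2% over the members. For occupancy (42295 higher, 6480 lower), TMM factors gave 21812 and 13635, DESeq2 size factors 22196 and 13160, a filter of 10 summed counts 0 and 0 of 2247775 bins (626867 at an unadjusted p under 0.05), all 8 libraries 0 and 0, and the other XEN pair 12022 and 83. With 1 replicate left out, edgeR called between 6 and 8 higher and 0 lower (15296 without replicate 1 and 19397 without replicate 2 at an unadjusted p under 0.05), with the lone XEN library assumed to vary like the other pair. A newer form of the edgeR fit, chosen after seeing the data, gave 46973 and 8451 on 3 libraries and 20634 and 1116 on all 8. The cause of these differences was not tested. The share of unmethylated peaks that stayed unmethylated (18.5%) was 20.1% at 60 counts and between 22.0% and 23.5% with 1 replicate left out. With bins wholly inside a peak, gains were 25.4% and losses 2.65% in peaks of RA cells only, and gains were 67.7% in peaks of both, 20.6% in no H3K4me1 peak, 71.0% with an H3K27ac peak of ESCs and 58.7% without one. Keeping the mitochondrial bins, also chosen after seeing the data, gave the same counts of gains and losses. Of the named bins, 71 of 85 values under alternatives kept their direction and their side of the threshold. The other 14, all of them occupancy, kept the direction only, and none turned. The named 5mC bins had to differ by more than 20 points in each replicate, so their values with 1 replicate left out were nearly fixed. Other coverage minimums and the 30 points were not tried on them, and alternatives that did not cover a bin were not counted. Of the alternatives for results on sets of bins, libraries and peaks, 47 moved past a limit set for each kind of result and 20 did not.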
